A study of Homo sapiens with 6 samples.

Results

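GATA1, GATA2 and 8 genes that work with them or mark the megakaryocyte and red cell branches were followed in U937 cells made to overexpress BCL6B. The 10 genes are GATA1, GATA2, TAL1, LMO2, ZFPM1, GFI1B, KLF1, NFE2, ITGA2B and GP1BA, out of 58735 genes in the deposited table, and all 10 were found by their symbols. They were picked with the difference between the groups already known, so their values in the groups are a description, with no test. Of the 10, 8 encode transcription factors or their cofactors, and ITGA2B and GP1BA encode surface glycoproteins of megakaryocytes and platelets.

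The question behind the comparison is the effect of raised BCL6B, which encodes a zinc finger protein related to the repressor BCL6, in a leukaemia line. There were 3 libraries of U937 cells labelled oeBCL6B (BCL6B overexpression, by lentivirus per the study's design text) and 3 labelled NC or control, which are called control here. All 6 were from the same line, carried the bone marrow label and belonged to batch 1. The labels class U937 as an acute promyelocytic leukaemia cell, whereas the line is generally listed as monocytic and of histiocytic lymphoma origin. No label says whether the cells were 1 clone or whether replicates came from separate cultures, so the error in each test is that among the libraries, possibly technical alone.

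GATA factors are zinc finger proteins that bind DNA at sites with the letters GATA. GATA2 is known for its part in blood stem and progenitor cells, mast cells and basophils, and GATA1 drives the red cell, megakaryocyte and eosinophil programmes. With TAL1, LMO2 and LDB1 they form a complex on the regulatory DNA of blood genes, and in monocytic cells the GATA1 programme is normally held low.

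Levels are given in FPKM, which divides the reads of a gene by its length and by the depth of the library, so genes can be set on 1 scale. Libraries held 17095256 to 18870186 reads in listed genes with oeBCL6B and 16481014 to 17627289 in controls. BCL6B had 1215 to 1712 reads per oeBCL6B library and 0 in each control, where a count of 0 allows up to 3 counts (floors and read ranges here cover counting error only, since reads had no molecular identifiers). Of 14662 genes with at least 0.5 FPKM in at least 3 libraries, 18.3% passed the test between the groups (limma on log2(FPKM + 1), Benjamini-Hochberg adjusted p under 0.05), 8.18% upward and 10.1% downward. The promyelocytic granule genes MPO, ELANE, PRTN3, AZU1 and CTSG summed to 1896 to 2093 FPKM with oeBCL6B and 2527 to 2696 FPKM in controls. Most of each sum was MPO, at 1668 ± 93.3 and 2025 ± 83.2 FPKM. Of the 5, 4 fell, with MPO, PRTN3, AZU1 and CTSG at 0.824, 0.564, 0.743 and 0.491 of the control mean. ELANE, with at most 13 reads in any library, did not pass. Of 12 monocytic markers 9 were tested, of which 1 rose and 3 fell, and the list summed to 105 to 109 FPKM with oeBCL6B and 148 to 155 FPKM in controls. Most of that gap was MNDA, an interferon-inducible nuclear protein gene, at 25.6 ± 0.859 FPKM with oeBCL6B and 64.0 ± 2.21 FPKM in controls, and LYZ and CD33 also fell while ITGAX rose. The median log2 change of the 9 was 0.00. The 3 under the filter, CD14, CD68 and CD86, had at most 7, 3 and 8 reads in any library. The 5 tested that did not pass were CD4, FCGR1A, FCN1, ITGAM and CSF1R. They were at 33.3, 11.0, 5.77, 2.90 and 1.51 FPKM with oeBCL6B and 32.9, 10.8, 5.75, 2.92 and 1.14 FPKM in controls. The 5 NK cell markers summed to 0.955 to 1.26 FPKM with oeBCL6B and 0.510 to 0.663 FPKM in controls. Of these only NCAM1 was tested, at 0.905 ± 0.113 FPKM with oeBCL6B and 0.306 ± 0.00613 FPKM in controls, and it passed the filter only through the oeBCL6B libraries, where it is high. These markers moved with the groups, and their part in the results below was not tested. In bulk RNA, fewer cells of a type and less RNA per cell cannot be told apart. Of the markers of other cell types, CDH5 and ROBO4 (endothelial), COL1A2 and DCN (fibroblast), PAX5 (B cell) and CD28 (T cell) had no read in any library.

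LMO2, GATA2 and NFE2 carried nearly all of the RNA of the group, with 93.7% to 94.5% of the summed FPKM of the 10 genes in oeBCL6B libraries and 95.7% to 96.2% in controls. The summed FPKM of the 10 genes was 97.2 to 107.6 with oeBCL6B and 81.3 to 87.2 in controls. LMO2 was the highest of the 10 in both groups. In oeBCL6B libraries GATA2 came next and NFE2 after it, with ranges that did not overlap, while in controls NFE2 and GATA2 overlapped. ZFPM1, ITGA2B and GATA1 followed at 1.20 to 1.95 FPKM in oeBCL6B libraries, with overlapping ranges. In controls ZFPM1 stood above the overlapping ranges of ITGA2B, GP1BA and GATA1. GFI1B, KLF1 and TAL1 came last in both groups.

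**Figure D1:**
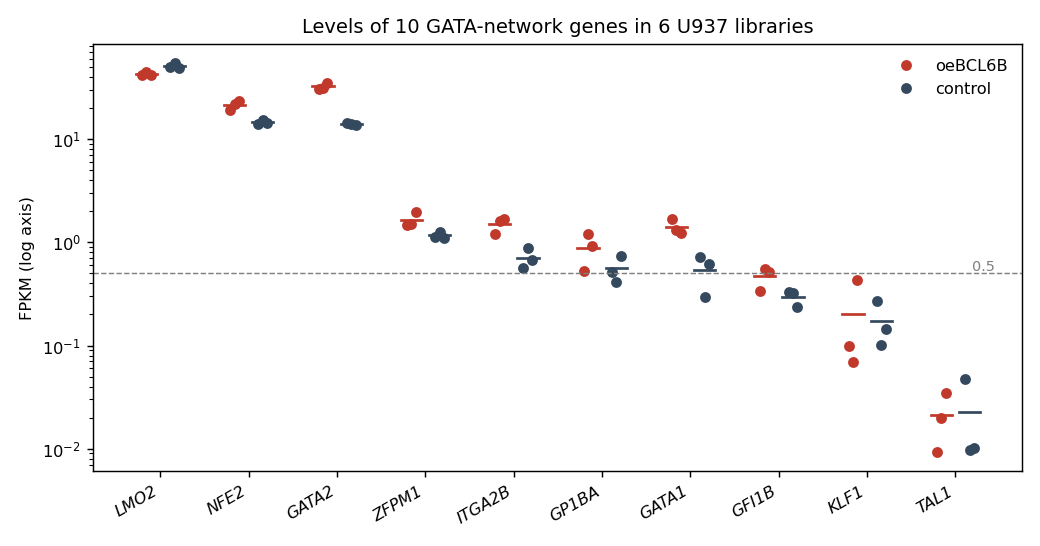
FPKM of the 10 genes in the 3 oeBCL6B libraries (left points of each gene) and the 3 control libraries (right points), on a log axis, with the group mean as a short line and the 0.5 FPKM filter dashed. LMO2, GATA2 and NFE2 lie above 10 FPKM in every library, and TAL1 below 0.05 FPKM.

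GATA2 (ENSG00000179348, GRCh38 chromosome 3, 128479427 to 128493185, minus strand) had 31.1, 31.7 and 35.3 FPKM in the oeBCL6B libraries and 14.4, 14.0 and 13.8 FPKM in the controls. Every oeBCL6B library was above every control, and the controls lay close together. The mean was 32.7 ± 2.30 FPKM with oeBCL6B and 14.1 ± 0.269 FPKM in controls (SD, n = 3 each), 2.32-fold higher, from 2522 to 3156 reads against 1070 to 1177 per library. The log2 change was 1.16 (SE 0.0582), and it ranged from 1.10 to 1.19 when 1 library was left out. The antisense gene GATA2-AS1, which overlaps GATA2 on the other strand, was at 0.637 ± 0.107 FPKM with oeBCL6B and 0.692 ± 0.125 FPKM in controls, far below GATA2.

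GATA1 (ENSG00000102145, chromosome X, 48786554 to 48794311, plus strand) had 1.70, 1.31 and 1.23 FPKM with oeBCL6B and 0.725, 0.293 and 0.615 FPKM in controls. The groups did not overlap, but the counts were small, with 35 to 48 reads per oeBCL6B library and 8 to 20 per control. The mean was 1.41 ± 0.252 FPKM against 0.544 ± 0.225 FPKM (SD, n = 3 each), 2.59-fold higher, with a log2 change of 0.65 (SE 0.142) on the log2(FPKM + 1) scale. That scale understates a change at such a level, and with voom, limma's method for read counts, the log2 change was 1.43. GATA1 stayed far below GATA2 throughout. It made up 3.37% to 5.19% of the summed FPKM of both in oeBCL6B libraries and 2.05% to 4.81% in controls, ranges that overlap.

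Among the cofactors, ZFPM1 (FOG1, a zinc finger partner of GATA1, chromosome 16, 88453317 to 88537016, plus strand) had 1.48, 1.49 and 1.95 FPKM with oeBCL6B and 1.13, 1.26 and 1.11 FPKM in controls. The groups did not overlap, with a 1.41-fold higher mean and a log2 change of 0.28 (SE 0.0992) on the log2(FPKM + 1) scale, or 0.49 with voom. LMO2 (chromosome 11, 33858576 to 33892289, minus strand), a LIM protein that bridges TAL1 and the GATA factors, went the other way. It had 41.6, 44.6 and 42.2 FPKM with oeBCL6B and 50.7, 54.5 and 49.4 FPKM in controls. All 3 oeBCL6B libraries were below the controls, at 0.831 of the control mean, with a log2 change of -0.26 (SE 0.0533). The values of LMO2 stand on 2435 to 3086 reads per library and those of ZFPM1 on 118 to 239.

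TAL1 (chromosome 1, 47216290 to 47232220, minus strand), the basic helix-loop-helix partner in the complex, had 1, 2 and 4 reads in oeBCL6B libraries and 5, 1 and 1 in controls. With 7 reads in each group no difference was detectable at this depth. KLF1 (chromosome 19, 12884422 to 12887199, minus strand), the red cell Krüppel-like factor, had 3, 2 and 14 reads with oeBCL6B and 8, 3 and 4 in controls. Its groups overlapped, and 14 of the 19 oeBCL6B reads came from replicate 3. GFI1B (chromosome 9, 132944000 to 132991687, plus strand), a repressor of the red cell and megakaryocyte branches, had 0.339, 0.550 and 0.515 FPKM against 0.330, 0.324 and 0.236 FPKM. All 3 of its oeBCL6B libraries lay above the controls, with the lowest just above the highest control. GFI1B shares a stretch of transcript with TSC1, which lies on the other strand, and TSC1 was at 3.42 ± 0.104 FPKM with oeBCL6B and 3.73 ± 0.206 FPKM in controls (SD, n = 3 each). How strand was used when reads were counted is not stated in what was used here, so reads of such overlapping pairs cannot be told apart. These 3 genes were under the filter and entered no test.

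NFE2 (chromosome 12, 54292111 to 54301121, minus strand) encodes the large subunit of the NF-E2 factor, which pairs with small MAF proteins and is needed for platelet formation. It had 19.1, 22.0 and 23.3 FPKM with oeBCL6B and 14.2, 15.4 and 14.5 FPKM in controls. All 3 oeBCL6B libraries were above the controls, with means of 21.5 ± 2.14 and 14.7 ± 0.641 FPKM (SD, n = 3 each), a 1.46-fold higher level and a log2 change of 0.51 (SE 0.0771).

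Of the surface glycoproteins, ITGA2B (CD41, the alpha chain of the platelet fibrinogen receptor, chromosome 17, 44372180 to 44389505, minus strand) had 1.20, 1.61 and 1.70 FPKM with oeBCL6B and 0.559, 0.880 and 0.675 FPKM in controls. The groups did not overlap, with 125 to 189 reads against 57 to 89 per library and a 2.13-fold higher mean. Its log2 change was 0.55 (SE 0.122) on the log2(FPKM + 1) scale and 1.10 with voom. GP1BA, the von Willebrand factor binding chain of platelets (chromosome 17, 4932297 to 4935030, plus strand), had 0.531, 1.21 and 0.918 FPKM against 0.522, 0.417 and 0.737 FPKM. Its groups overlapped, with a log2 change of 0.26 (SE 0.161) on that scale and 0.61 with voom. Reads of the genes for the chains they pair with were at or near 0. ITGB3, the beta chain that joins ITGA2B, had 1 read in 1 oeBCL6B library and 0 in the other libraries, and GP1BB, GP5 and GP9, partners of GP1BA, had 1 read between them, of GP5 in 1 control.

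**Figure D2:**
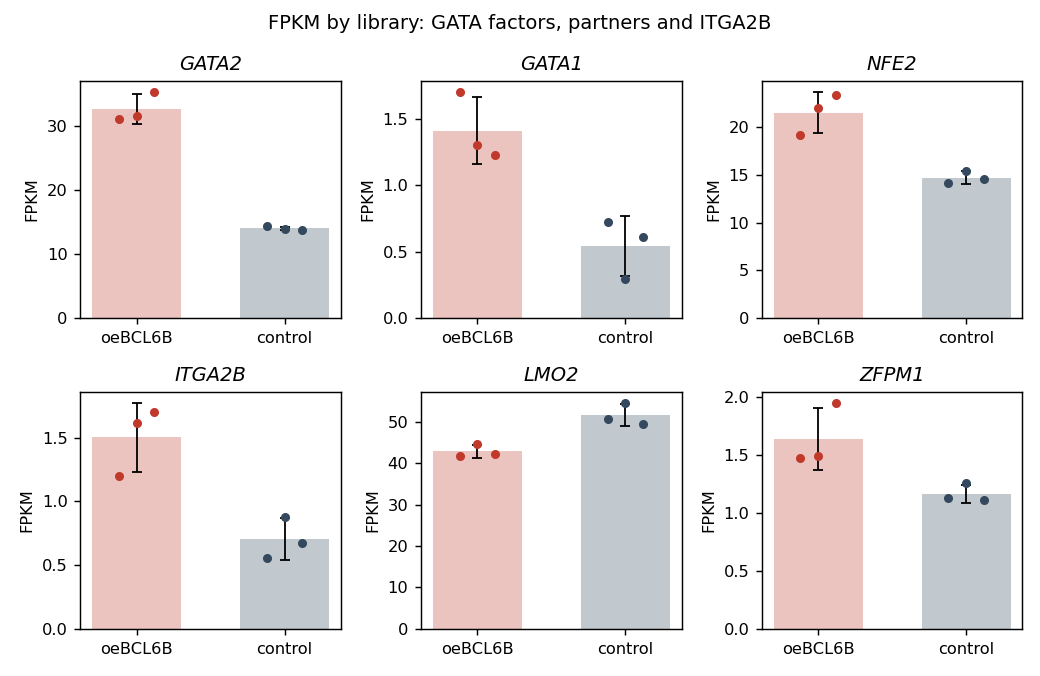
FPKM of GATA2, GATA1, NFE2, ITGA2B, LMO2 and ZFPM1, with oeBCL6B on the left and control on the right of each panel. Bars are means, error bars are SD (n = 3) and points are libraries. The 6 panels are the tested members whose groups do not overlap, as is so for 40% of all tested genes. GP1BA, the other tested member, overlaps and is not shown. LMO2 is the gene with the lower oeBCL6B level.

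Over the 10 genes, 7 passed the filter, of which GATA1 and GP1BA met 0.5 FPKM in 2 of 3 controls and the other 5 in all 3. In 5 of the 7 every oeBCL6B library was above every control (17.8% of all tested genes), and in 1 every oeBCL6B library was below (22.2%), so groups did not overlap for 6 (40%). In the test across all genes 4 of the 7 were called upward (8.18% of all tested) and 1 downward (10.1%). Since the 10 were picked on this contrast, neither these counts nor the calls of single members are evidence about them. The refits below reuse the same values, so they describe only how far a call rests on 1 library. GATA2 and NFE2 were called in each of the 6 fits that left out 1 library. GATA1 was not called without control replicate 3, oeBCL6B replicate 1 or oeBCL6B replicate 2. ITGA2B was not called without control replicate 1 or 3 or oeBCL6B replicate 2 or 3, and LMO2 was not called without control replicate 1. The count of called members was 3 without control replicate 1, control replicate 3 or oeBCL6B replicate 2, against 5 with all libraries.

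RefSeq promoter windows (GRCh38.p14, 250 bases before to 50 after a start) were available for 7 of the 10 genes, 10 windows in all. They are shown for GATA1, GATA2, ITGA2B and KLF1, to set the GATA genes beside genes of the branch they control. Capitals mark GATA hexamers, in which the letters GATA follow A or T and stand before A or G, on either strand, and each window runs 5′ to 3′ along its gene. The GATA1 window is chrX:48786340-48786639, plus strand, the GATA2 window, at the upstream start, chr3:128493152-128493451, minus strand, the ITGA2B window chr17:44389600-44389899, minus strand, and the KLF1 window chr19:12887152-12887451, minus strand.
GATA1: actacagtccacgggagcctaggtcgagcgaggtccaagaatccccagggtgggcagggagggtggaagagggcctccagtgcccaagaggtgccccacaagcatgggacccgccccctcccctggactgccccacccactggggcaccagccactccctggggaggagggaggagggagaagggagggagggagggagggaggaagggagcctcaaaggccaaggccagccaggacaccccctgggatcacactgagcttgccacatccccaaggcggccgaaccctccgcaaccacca
GATA2: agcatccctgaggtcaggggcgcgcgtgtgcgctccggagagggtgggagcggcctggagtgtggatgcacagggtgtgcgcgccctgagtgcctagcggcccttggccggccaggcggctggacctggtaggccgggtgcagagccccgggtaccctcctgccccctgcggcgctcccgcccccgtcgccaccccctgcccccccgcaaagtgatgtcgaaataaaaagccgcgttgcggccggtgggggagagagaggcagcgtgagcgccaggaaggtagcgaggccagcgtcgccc
ITGA2B: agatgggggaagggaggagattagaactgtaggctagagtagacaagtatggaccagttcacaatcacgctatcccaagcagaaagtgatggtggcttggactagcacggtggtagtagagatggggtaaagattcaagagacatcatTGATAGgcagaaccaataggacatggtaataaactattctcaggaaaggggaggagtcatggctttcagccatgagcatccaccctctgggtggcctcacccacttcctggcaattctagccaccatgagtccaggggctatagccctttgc
KLF1: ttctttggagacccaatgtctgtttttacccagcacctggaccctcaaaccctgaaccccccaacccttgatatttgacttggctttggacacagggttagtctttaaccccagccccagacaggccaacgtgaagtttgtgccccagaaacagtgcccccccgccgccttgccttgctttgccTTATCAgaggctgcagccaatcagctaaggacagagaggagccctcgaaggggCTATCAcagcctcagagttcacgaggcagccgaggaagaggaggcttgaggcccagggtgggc

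No GATA hexamer stood in the windows of GATA1, ZFPM1 or either start of GATA2. ITGA2B had 1, beginning 102 bases before its RefSeq start, and KLF1 had 2, beginning 66 and 13 bases before its own. TAL1 had 1 in 1 of its 2 windows and GFI1B 1 in each of its 2. The ITGA2B window, and the TAL1 window with the match, lie wholly upstream of the gene spans given above. Of 34796 promoter windows, 25.0% held at least 1. The letters TTCNNAGAA, a loose form of the BCL6 recognition site, were in none of the 10 windows on either strand and in 4.52% of all. The E-box CAGNTG, the kind of site that TAL1-type factors bind, matched 3 times at the downstream start of GATA2 and 1 time in each GFI1B window and the KLF1 window, and 50.0% of all windows held at least 1. Base composition differed widely, from 2 CG pairs at ITGA2B and 7 at GATA1 to 29 at the upstream GATA2 start and 47 at ZFPM1, where the median window had 14. A match is a description of the letters, and none says that a factor was bound.

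Of 35 listed partners and cofactors, 31 were tested, of which 5 rose, 3 fell and 23 did not pass. Among all tested genes 18.3% passed. The median log2 change of the list was 0.04, against -0.02 for all tested genes. SSBP3, which stabilises LDB1, rose 1.28-fold to 17.5 ± 0.116 FPKM with oeBCL6B, against 13.7 ± 0.325 FPKM in controls (limma adjusted p = 0.00456). The corepressor gene CBFA2T3 (ETO2) rose to 9.92, 9.02 and 10.8 FPKM, against 6.92, 7.06 and 6.76 FPKM in controls (1.43-fold, limma adjusted p = 0.00761). NFE2L1, a relative of NFE2, rose 1.24-fold (limma adjusted p = 0.00721). LYL1, the close relative of TAL1, was at 31.7 FPKM with oeBCL6B and 26.0 FPKM in controls, where TAL1 itself had almost no reads. It passed (limma adjusted p = 0.0388), a call lost without any 1 library other than oeBCL6B replicate 1 (adjusted p up to 0.123). LDB1, which joins the complex to DNA-bound partners, had 21.2 to 24.9 FPKM against 24.1 to 25.9 FPKM and did not pass (limma adjusted p = 0.217).

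GFI1, the paralogue of GFI1B with a role in neutrophil and lymphoid cells, fell to 34.5, 32.1 and 35.4 FPKM with oeBCL6B, against 49.1, 44.8 and 46.2 FPKM in controls (0.727 of the control mean, limma adjusted p = 0.00424). KDM1A and RCOR1, the demethylase and corepressor that both GFI1 proteins recruit, were lower as well, at 0.838 and 0.868 of the control mean (limma adjusted p = 0.0146 and 0.0406). The calls of SSBP3, CBFA2T3, NFE2L1 and GFI1 held whichever library was left out. KDM1A was lost without control replicate 3 or oeBCL6B replicate 2 (adjusted p up to 0.0642), RCOR1 without any 1 library other than oeBCL6B replicate 1 (up to 0.141), and CBFB, up 1.25-fold (limma adjusted p = 0.0380), without any 1 library (up to 0.0867). Without control replicate 3 or without oeBCL6B replicate 2 the list had 4 calls, and without control replicate 1 it had 5.

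Of 46 red cell genes listed, 19 were tested, of which 3 rose, 1 fell and 15 did not pass, where 18.3% of all tested genes passed, with a median log2 change of 0.02. None of 8 globin genes had a read in any of the 6 libraries, and of the red cell membrane genes GYPB, SLC4A1 and EPB42, GYPB and SLC4A1 had no read and EPB42 had 1, in 1 oeBCL6B library. Other genes of the red cell membrane skeleton had reads. ANK1 (ankyrin) had 63 to 83 reads with oeBCL6B and 33 to 57 in controls and SPTB (beta spectrin) 50 to 79 and 27 to 33, both under the filter with groups that did not overlap, and EPB41 (protein 4.1) had 623 to 776 and 599 to 731 and did not pass. ALAS2, the red cell form of the first haem synthesis enzyme, had 4 to 6 reads with oeBCL6B and 0 to 2 in controls. The mitochondrial iron importer gene SLC25A37 rose 1.19-fold to 46.5 ± 1.45 FPKM, against 39.0 ± 2.45 FPKM (limma adjusted p = 0.0279), GYPC, a membrane glycophorin, 1.24-fold (limma adjusted p = 0.0174) and CA2, a carbonic anhydrase, 1.58-fold (limma adjusted p = 0.0423). ALAD, the second haem synthesis enzyme, fell to 0.831 of the control mean (limma adjusted p = 0.0260). Each of these calls was lost in at least 3 of the 6 fits that left out 1 library, with adjusted p up to 0.0810, 0.0697, 0.126 and 0.0973. The list had 0 calls without control replicate 1 or 3, 1 without control replicate 2, oeBCL6B replicate 2 or oeBCL6B replicate 3, and 2 without oeBCL6B replicate 1.

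Of 30 megakaryocyte and platelet genes, 5 were tested and 1 rose, where 8.18% of all tested genes rose. Their median log2 change was -0.09. P2RX1, an ATP-gated channel of platelets and myeloid cells, had 5.85, 6.29 and 5.91 FPKM with oeBCL6B and 4.36, 4.77 and 4.79 FPKM in controls (1.30-fold, limma adjusted p = 0.0155). That call was lost without control replicate 1 or oeBCL6B replicate 2 (adjusted p up to 0.0598), when the list had 0 calls. Without oeBCL6B replicate 3 it had 2. The granule gene NBEAL2 and the thromboxane synthase gene TBXAS1 were the highest of the list, at 13.0 and 9.74 FPKM with oeBCL6B and 16.2 and 10.4 FPKM in controls, and did not pass (limma adjusted p = 0.0641 and 0.423). PF4, the platelet factor 4 gene, had no read in any library. Some other genes of the list that were under the filter had reads. F2RL3 had 31 to 46 reads with oeBCL6B and 13 to 15 in controls, and ESAM 21 to 27 and 9 to 10. TUBB1 went the other way, with 5 to 8 and 9 to 15. The groups did not overlap for any of these, and none entered a test.

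The list of mast cells, basophils and eosinophils, branches in which GATA1 and GATA2 also act, held calls in both directions. Of 21 listed, 8 were tested, of which 4 rose, 2 fell and 2 did not pass, where 18.3% of all tested genes passed. Their median log2 change was 0.48. The list was chosen with earlier results of these data known, so its counts are a description. EPX, the eosinophil peroxidase gene, had 23.6, 26.3 and 26.1 FPKM with oeBCL6B and 6.41, 7.75 and 6.09 FPKM in controls (3.75-fold, limma adjusted p = 0.000208). HDC, which makes histamine, rose 1.60-fold to 109 ± 7.33 FPKM, against 68.0 ± 2.46 FPKM (limma adjusted p = 0.00153). PRG2, the eosinophil major basic protein gene, rose 1.47-fold (limma adjusted p = 0.0147) and the tryptase gene TPSAB1 1.71-fold (limma adjusted p = 0.0300). TPSAB1 is nearly identical to TPSB2, and the transcript of PRG2 shares a long stretch with the annotated gene AP000781.2, so reads could be split between the copies. TPSB2 was at 2.12 ± 0.279 FPKM with oeBCL6B and 1.20 ± 0.518 FPKM in controls, and did not pass (limma adjusted p = 0.0796).

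MS4A2, the beta chain of the IgE receptor of mast cells and basophils, fell to 0.274, 0.289 and 0.325 FPKM with oeBCL6B, against 1.21, 1.20 and 1.14 FPKM in controls (0.251 of the control mean). It passed the filter only through the controls, where it is high, so among tested genes it had to differ, and its call among the 2 falls is no support. RNASE2, the eosinophil-derived neurotoxin gene, fell to 156 ± 8.34 FPKM, against 206 ± 12.4 FPKM (limma adjusted p = 0.00855). KIT and FCER1A, which define mast cells, and CLC, which defines eosinophils and basophils, had no read in any library. The calls of EPX, HDC and RNASE2 held whichever library was left out. PRG2 was lost without control replicate 3 or oeBCL6B replicate 2 (adjusted p up to 0.0545), and TPSAB1 without any 1 library other than oeBCL6B replicate 2 (up to 0.0862). Without control replicate 3 the list had 4 calls.

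**Figure D3:**
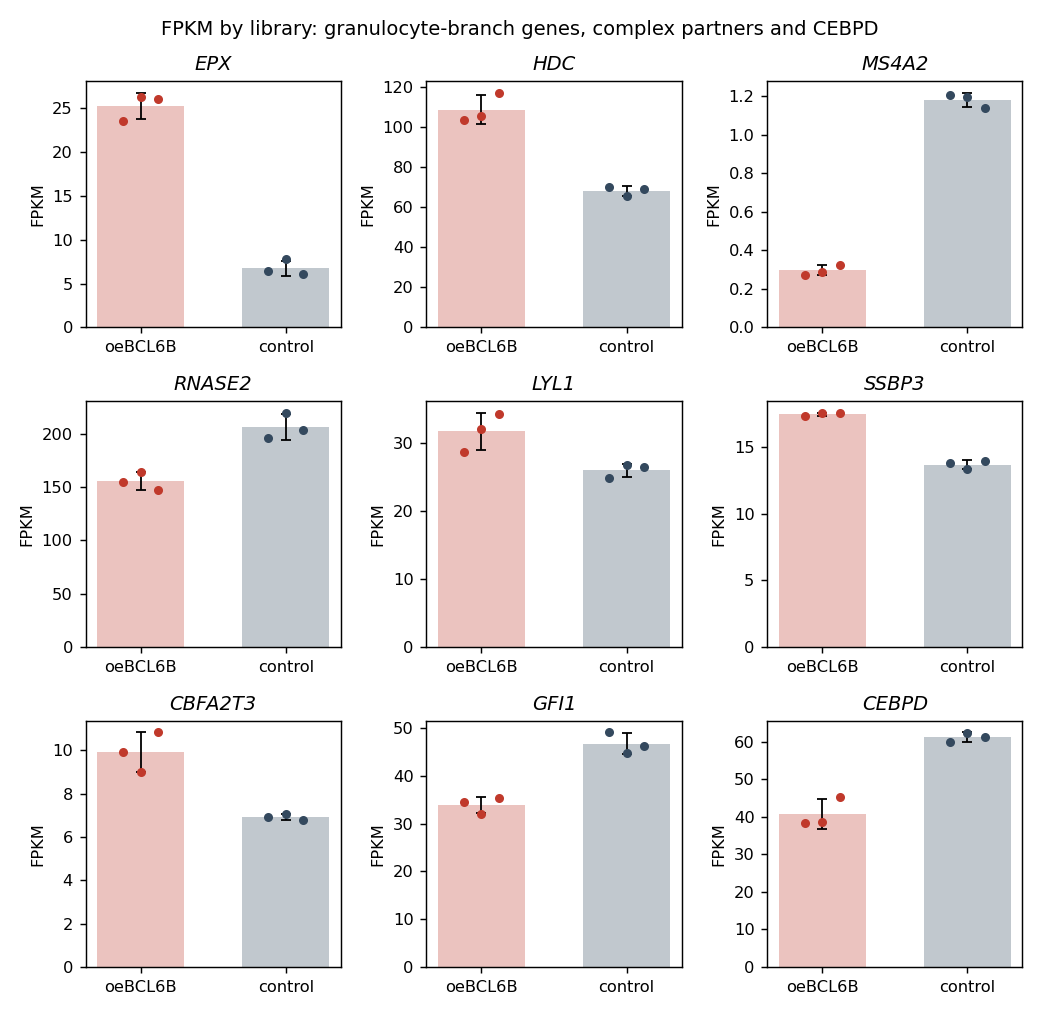
FPKM of 9 genes of the related lists, with oeBCL6B on the left and control on the right of each panel. Bars are means, error bars SD (n = 3) and points libraries. EPX, HDC, LYL1, SSBP3 and CBFA2T3 are higher with oeBCL6B, and MS4A2, RNASE2, GFI1 and CEBPD are lower.

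Transcription factors of the monocyte and granulocyte branches moved in both directions. Of 28 listed, 20 were tested, of which 3 rose, 4 fell and 13 did not pass, where 18.3% of all tested genes passed. Their median log2 change was 0.11. KLF2, a Krüppel-like factor of quiescent and myeloid cells, rose 2.92-fold to 1.70 ± 0.282 FPKM, against 0.583 ± 0.259 FPKM in controls (limma adjusted p = 0.0156) and IKZF1, a lymphoid and myeloid factor, 1.13-fold (limma adjusted p = 0.0465). CEBPD, ETV6, ZEB2 and MYB fell to 0.666, 0.808, 0.635 and 0.721 of the control mean (limma adjusted p = 0.00390, 0.00514, 0.00578 and 0.0116). SPI1 (PU.1), which opposes GATA1 in cell culture studies, had 91.7 to 106 FPKM with oeBCL6B and 83.0 to 89.8 FPKM in controls and did not pass (limma adjusted p = 0.123). In this list every call but that of IKZF1 held whichever library was left out, while IKZF1 was lost in all 6 such fits, with adjusted p up to 0.147.

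**Figure D4:**
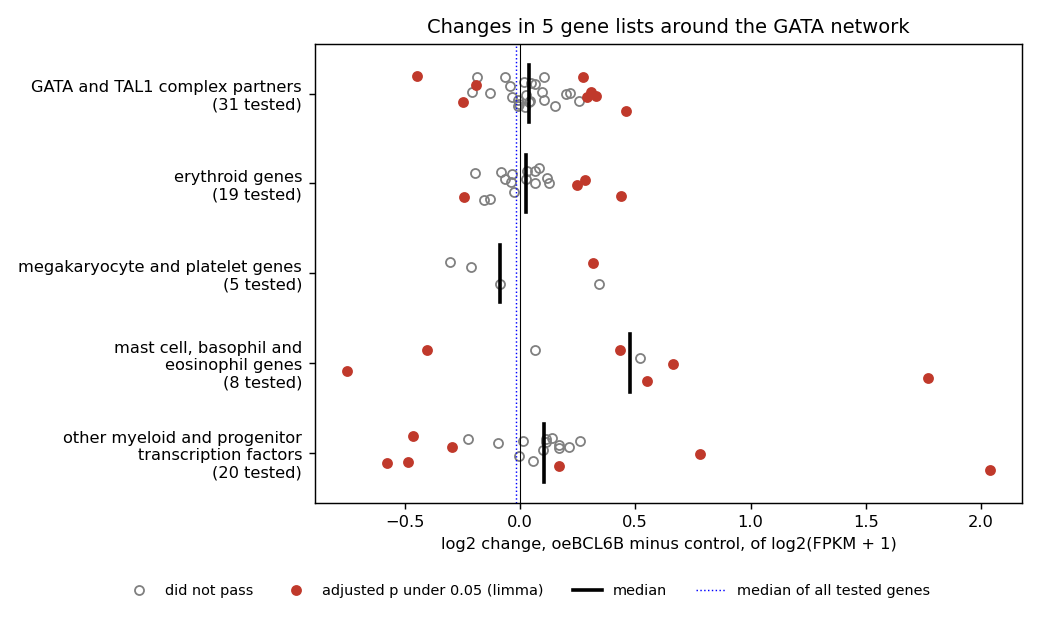
Log2 change (oeBCL6B minus control, on log2(FPKM + 1)) of each tested gene in the 5 lists. Filled points passed at a limma adjusted p under 0.05, open points did not, black lines are list medians and the dotted line is the median of all tested genes, -0.02. In the mast cell, basophil and eosinophil list EPX lies farthest to the right, at 1.77, and MS4A2 farthest to the left, at -0.75.

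By profile over the 6 libraries, taken as log2(FPKM + 1) less the control mean, the protein-coding genes nearest to GATA2 were TM6SF1, VEGFA, SLC6A8, JUN and ICAM1, at a root mean square difference of 0.0573 to 0.0956. For LMO2 they were PARK7, USP5, AAMP, KAT7 and ARFGAP2, at 0.0126 to 0.0272. Such likeness is a description over 6 libraries.

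Of 20 nearest tested protein-coding neighbours 2 rose, 3 fell and 15 did not pass, where 18.3% of all tested genes passed. Beside GATA2, EEFSEC and RPN1 had log2 changes of 0.00 and 0.06 and did not pass, and beside GATA1 neither SUV39H1, at -0.23, nor HDAC6, at 0.02, passed. DNASE2 and GCDH, on either side of KLF1, went in opposite directions at 11.2 ± 0.344 and 9.61 ± 0.725 FPKM with oeBCL6B, against 6.81 ± 0.785 and 15.5 ± 1.09 FPKM in controls (limma adjusted p = 0.00426 and 0.00335). FAM171A2, beside ITGA2B, rose 1.86-fold (limma adjusted p = 0.0256), and FBXO3, beside LMO2, and MINK1, beside GP1BA, fell to 0.729 and 0.737 of the control mean (limma adjusted p = 0.0264 and 0.0247). The calls of DNASE2 and GCDH held whichever library was left out. FAM171A2 and FBXO3 were lost without any 1 library other than oeBCL6B replicate 1 (adjusted p up to 0.0816 and 0.0924), and MINK1 without any 1 other than oeBCL6B replicate 3 (up to 0.0851). COPZ1, which begins 81 bases from NFE2, was at 24.4 ± 1.45 FPKM with oeBCL6B and 23.2 ± 0.846 FPKM in controls and did not pass.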

How the data were processed

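Polyadenylated RNA was made into dUTP-marked libraries, per the labels' protocols. The deposited values are FPKM, 1 column per library, per the file headers. The submitters' processing notes name cutadapt 1.9 and GRCh38, while the aligner and counter, and whether strand was used, are not given in the sources at hand. FPKM times gene length came out as whole reads for 100% of 139702 values above 0, within a tolerance of 0.01.

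Genes with at least 0.5 FPKM in at least 3 libraries were tested with limma 3.58.1 in R 4.3.3 on log2(FPKM + 1), with variances moderated along the mean level and p-values adjusted by Benjamini and Hochberg's method across every tested gene (threshold 0.05). The procedure was checked on simulated reads, and 16 alternatives were run. The members and the 5 gene lists were chosen with earlier results of these data known. The text names all members, up to 4 rises and 4 falls per list with the smallest adjusted p, the 2 most abundant genes of a list with under 2 calls, the 5 nearest profiles and the nearest neighbours. Named list genes and members were searched with BLAST+ 2.17.0 against GENCODE transcripts for near-identical stretches (98% identity, 200 bases or longer). Other list genes in the text were named after their values were seen, and some list genes are not reported here.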

Additional observations from a re-analysis of the deposited data

How the results depend on the processing

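Over the 10 members and 16 alternatives no log2 change of a called gene turned its sign, and 12 of 113 values moved by more than the spread between replicates. Without the filter on low values there were 1588 changed genes in all, against 2687, 3 called members against 5, 5 complex partners against 8, 2 red cell genes against 4 and 3 platelet genes against 1. Without a mean-variance trend 5 partners passed, and after rescaling to TPM 2 red cell genes did. Voom on the recovered reads gave 4 platelet genes, 2 rising and 2 falling, and 6 members, adding ZFPM1. Leaving out 1 library gave 1222 to 2272 changed genes, 3 to 5 members, 4 to 8 partners, 0 to 2 red cell genes, 0 to 2 platelet genes, 4 to 6 of the mast cell and eosinophil list and 6 of the myeloid factors. The labels do not say that replicate numbers mark pairs. Same-numbered libraries deviated together with correlations of 0.0511, 0.110 and -0.00189 across genes, so the numbers were not taken as pairs. The fit with the replicate number as a block called 2328 genes, 5 members and 2 platelet genes. Of the list genes that passed, 75 of 415 refits lost the call and none turned its sign. Members with under 100 reads in at least 1 library (ITGA2B, GATA1, GP1BA, GFI1B, KLF1 and TAL1) have wide counting error, which limits what can be said of them.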
